A study of Mus musculus with 12 samples.

Results

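The desmosome and plakin genes examined here were 10 of the 57010 genes in the count table, taken by their symbols: *Dsp*, *Pkp1*, *Pkp2*, *Pkp3*, *Dsg2*, *Dsc2*, *Jup*, *Perp*, *Ppl* and *Evpl*. RNA sequencing was performed on murine ovarian cancer cells of the lines ID8 and 28-2, grown in 2D culture, in 4 groups of 3 libraries. ID8-200f and 28-2-200f cells carried a pair of lentiviral vectors, one with the miR-200c/141 cluster and a hygromycin marker and one with the miR-200b/200a/429 cluster and a puromycin marker, each cluster behind a CMV promoter. ID8-200f cells were kept in 40 µg/ml puromycin and 50 µg/ml hygromycin, and 28-2-200f cells in 60 µg/ml puromycin and 1000 µg/ml hygromycin. ID8EV and 28-2EV cells carried an empty lentiviral vector with a puromycin marker and fluorescent proteins, and were kept in 30 µg/ml puromycin with no hygromycin. The methods call the 3 libraries of a group independent samples, but they describe 1 infected population per group. Differences in vector, selection drugs and miR-200 therefore cannot be told apart between a 200f group and its EV group. The study asked what miR-200 overexpression does in these cells, and whether desmosomal genes move with it is the question followed here.

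Desmosomes are spot-like junctions that tie the intermediate filaments of neighbouring epithelial cells together. Desmosomal cadherins, the desmogleins and desmocollins, meet in the gap between the cells, and their tails are held by the armadillo proteins plakoglobin and the plakophilins. Desmoplakin, a plakin, links this plaque to the keratin filaments. MiR-200 family members are known for repressing the transcription factors *Zeb1* and *Zeb2*, which repress epithelial junction genes during epithelial-to-mesenchymal transition (EMT).

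The 5 mature miRNAs of the vectors' clusters are shown because their seeds define which matches could be looked for in the members. Sequences are from RefSeq (GRCm38.p6), 5′ to 3′, with the seed, bases 2 to 8, in capitals. The first 3 share one seed and the last pair shares another.
mmu-miR-200b-3p: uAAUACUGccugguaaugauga
mmu-miR-200c-3p: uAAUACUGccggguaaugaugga
mmu-miR-429-3p: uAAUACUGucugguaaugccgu
mmu-miR-200a-3p: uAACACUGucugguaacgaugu
mmu-miR-141-3p: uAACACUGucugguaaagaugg

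A 7-base match to the first seed, CAGTATT on the transcript strand, was in the longest annotated 3′UTR (GENCODE M21, GRCm38) of 0 of the 10 members, against 13.3% of 21037 genes. A match to the second seed, CAGTGTT, was in *Perp* and *Dsc2*, with 2 matches in *Perp* and 1 in *Dsc2*, against 17.2% of all genes. The other 8 members, *Dsp* and the 3 plakophilins among them, held neither. The 3′UTRs searched ran from 196 bases in *Evpl* to 2377 bases in *Dsg2*, around a median of 960 over all genes. The *Perp* matches, in capitals, lie at bases 524 to 530 and 864 to 870 of the 3′UTR, within chr10:18856389-18856418 and chr10:18856729-18856758 on the plus strand (GRCm38).
Perp, first match: gaatttttagtCAGTGTTttgaacaattat
Perp, second match: agaagacatggCAGTGTTtcttctcagtgc
A match describes letters only and is not a measured target site.

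Libraries held 16390953 to 23063875 counts. Over all genes, the 3 libraries of a 28-2 group lay further apart than those of an ID8 group. The SD of log2 deviations from the group mean was 0.096 to 0.16 in the 6 ID8 libraries and 0.17 to 0.45 in the 6 28-2 libraries, the last in 28-2EV replicate 2. Of 8 ovarian surface and mesothelial markers, 0 were without reads in any group, and their summed level was 5492 to 6036 CPM (counts scaled to the library total) in ID8-200f, 5926 to 7059 CPM in ID8EV, 6401 to 8402 CPM in 28-2-200f and 4272 to 4891 CPM in 28-2EV cells. In both lines the mean of *Wt1* was lower in 200f than in EV cells (645 against 1232 CPM in ID8, 623 against 852 CPM in 28-2 cells). So were *Upk3b* (335 against 1507, 126 against 327 CPM) and *Lrrn4* (8.75 against 52.1, 0.68 against 4.07 CPM). *Msln* (607 against 378, 717 against 414 CPM) and the keratins *Krt7*, *Krt8*, *Krt18* and *Krt19* had higher means in 200f cells of both lines. The 4 leukocyte markers summed to at most 3.85 CPM, the 4 endothelial markers to at most 3.36 CPM and the 4 cardiac muscle markers to at most 2.99 CPM in any library. The 5 fibroblast markers (*Pdgfra*, *Pdgfrb*, *Dcn*, *Lum*, *Col1a1*) moved with the ID8 comparison, with sums of 110 to 163 CPM in ID8-200f and 456 to 507 CPM in ID8EV cells. In 28-2 cells the sums overlapped, at 212 to 400 CPM in 28-2-200f and 80.2 to 480 CPM in 28-2EV cells. *Dcn* made up most of these sums, at 208 to 396 CPM in 28-2-200f and 64.0 to 459 CPM in 28-2EV cells. *Pdgfra* (1.58 to 2.25 against 7.77 to 13.3 CPM) and *Col1a1* (1.86 to 2.99 against 5.86 to 8.44 CPM) were lower in 28-2-200f cells, with no overlap. *Lum* had 0 counts throughout and *Pdgfrb* stayed at or under 0.30 CPM, and the part of these genes in the members' values was not tested. Of the 5 squamous keratinocyte markers, *Krt14* alone set 1 library apart, with 270 CPM of a summed 272 CPM in 28-2-200f replicate 3, against sums of 11.8 and 15.1 CPM in the other two 28-2-200f libraries. In 28-2-200f libraries *Krt5* was at most 0.11 CPM, *Dsg3* at most 0.12 CPM, *Trp63* at most 0.23 CPM and *Ivl* at most 2.93 CPM. That replicate was also the highest of its group for 8 of the 10 members.

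Members were compared between 200f and EV cells within each line, with calls at a false discovery rate (FDR) under 0.05 over all genes tested. In ID8 cells, *Dsp*, *Pkp1*, *Dsc2* and *Perp* rose and *Pkp2* and *Dsg2* fell, while *Jup*, *Ppl* and *Evpl* did not pass. Of 9 members tested, 4 were higher and 2 were lower in ID8-200f cells, against 17.0% of all genes tested higher and 19.0% lower. With the stricter cut-off of the study (absolute log2 fold change over 1 and FDR under 0.01), *Dsp* and *Pkp1* passed, against 7.41% of genes. In 28-2 cells, 2 of 9 members tested rose with edgeR, *Pkp1* and *Perp*, and 0 fell, against 2.26% of genes higher and 2.18% lower. DESeq2, which also tested *Pkp3*, gave 5 higher (*Dsp*, *Pkp1*, *Pkp3*, *Jup* and *Perp*) and 0 lower. Over all genes it gave 667 higher and 700 lower of 25059, of which 9248 had no adjusted p and could not be called. At an unadjusted p under 0.05 in edgeR 5 were higher and 0 lower. The share over all genes was not counted, so these numbers cannot be set against it. *Pkp1* alone passed that stricter cut-off in 28-2 cells, against 0.757% of genes. It passed the low-count filter there only through its 28-2-200f libraries, so it could hardly come out lower in these counts. *Pkp3* had too few counts for the edgeR filter in either line. Its DESeq2 call in 28-2 cells rests on 6 counts in 28-2EV and 70 in 28-2-200f libraries, so it too could hardly come out lower. The median log2 fold change of the 9 members was 0.15 in ID8 and 0.87 in 28-2 cells, beside -0.0011 and -0.012 over all genes tested. Since the RNA came from whole cultures, fewer cells of a type and less RNA per cell cannot be told apart in any of these values.

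**Figure D1:**
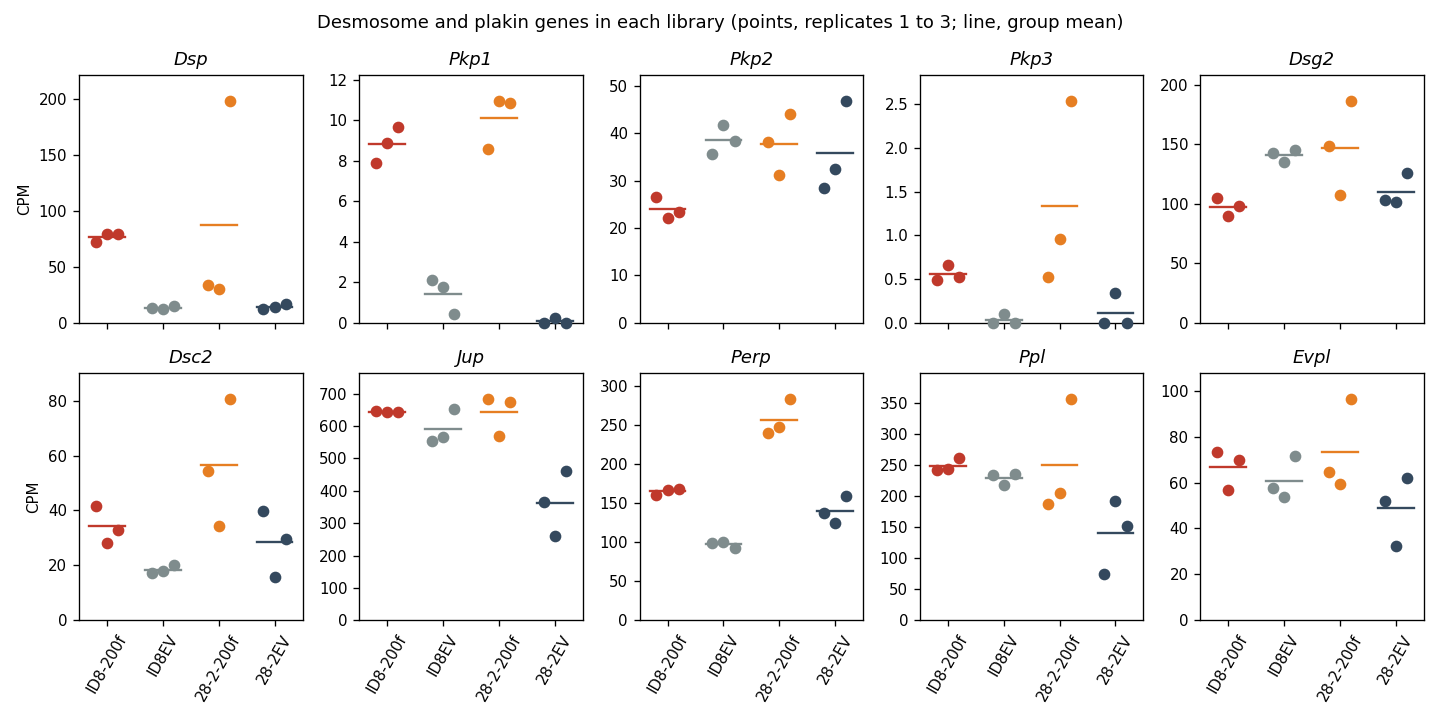
CPM of each of the 10 members in every library, on linear axes from 0. Points are replicates 1 to 3 of each group and lines are group means. *Dsp*, *Pkp1* and *Perp* lie higher in all 200f libraries than in the EV libraries of the same line, and a single 28-2-200f library reaches 198 CPM for *Dsp*.

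**Figure D2:**
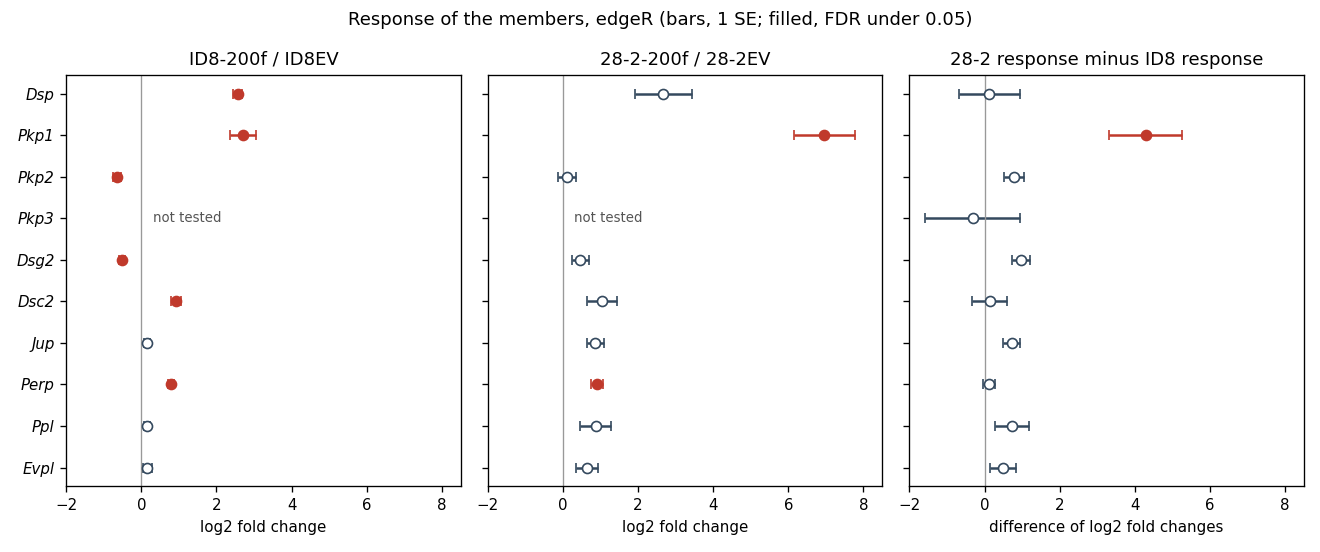
Log2 fold change of each member in edgeR for ID8-200f against ID8EV, 28-2-200f against 28-2EV, and the difference between both responses. Bars are 1 SE and filled points passed an FDR under 0.05. *Pkp1* lies at 2.71 in ID8 and 6.96 in 28-2 cells, and the ID8 panel shows *Pkp2* and *Dsg2* below 0.

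*Dsp* encodes desmoplakin, the plaque protein that anchors keratin filaments. It had 71.6, 78.8 and 79.5 CPM in ID8-200f libraries, against 12.7, 11.8 and 15.1 CPM in ID8EV libraries. The groups were far apart, and *Dsp* rose by 2.56 ± 0.11 on the log2 scale (SE, n = 3 each, adjusted p = 5.07e-09), a 5.90-fold difference. In 28-2 cells it had 33.5, 30.2 and 198 CPM in 28-2-200f libraries, against 11.99, 14.2 and 16.8 CPM in 28-2EV libraries. The groups did not overlap here either, but replicate 3 of 28-2-200f stood far above the other two of its group. The log2 fold change was 2.67 ± 0.76 (SE), with an adjusted p of 0.10. Without that replicate it was 1.16 with an adjusted p of 0.064. DESeq2 called it (adjusted p = 0.034), as did edgeR with no filter on low counts (adjusted p = 0.0037) and with all 4 groups in one fit (adjusted p = 0.0099). With that replicate and 28-2EV replicate 2 both left out, a choice made after seeing the data, *Dsp* also passed, at a smaller log2 fold change of 1.18 (adjusted p = 0.031).

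Other genes moved with *Dsp* in that library. *Itgb4*, the integrin of hemidesmosomes, had 13.8, 10.4 and 69.3 CPM in 28-2-200f libraries, against 8.45, 2.72 and 10.5 CPM in 28-2EV libraries. *Krt7*, a keratin of simple epithelia, had 177, 244 and 1118 CPM in 28-2-200f libraries, against 0.28, 1.17 and 1.71 CPM in 28-2EV libraries. Both had their highest 28-2-200f level in the library with the most *Dsp* and *Krt14*, and the part of that library's makeup in the *Dsp* values was not tested.

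Among all genes compared, *Itgb4* also had the pattern nearest to that of *Dsp*. Nearness was the root-mean-square difference of log2 CPM, centred on each gene's own mean, over the 12 libraries and 9784 genes with a mean of at least 5 CPM. It was 0.58 for *Itgb4*, 0.67 for *Osgin1* and 0.67 for *Parm1*. *Itgb4* averaged 39.6 CPM in ID8-200f, 10.4 CPM in ID8EV, 31.2 CPM in 28-2-200f and 7.22 CPM in 28-2EV cells.

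Plakophilins bind desmoplakin and gather it at the plaque. *Pkp1*, best known from stratified epithelia, had 7.91, 8.88 and 9.70 CPM in ID8-200f libraries, against 2.10, 1.74 and 0.43 CPM in ID8EV libraries. All ID8-200f values lay above all ID8EV values, and *Pkp1* rose by 2.71 ± 0.34 on the log2 scale (SE, n = 3 each, adjusted p = 4.61e-05). In 28-2 cells it had 8.58, 10.9 and 10.9 CPM in 28-2-200f libraries, against 0, 0.22 and 0 CPM in 28-2EV libraries. The 28-2-200f level was thus close to that of ID8-200f cells, while 28-2EV cells held 4 counts in all, every one of them in replicate 2. The ratio of summed counts, 523 to 4 after scaling to depth, was 132 with a 95% exact counting interval of 51.3 to 487. The fitted log2 fold change was 6.96 ± 0.81 (SE, adjusted p = 0.0091), and *Pkp1* passed the filter in 28-2 cells only through its 28-2-200f libraries. In ID8 cells its call at an FDR under 0.05 held in 15 of 15 alternatives.

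*Pkp2*, the plakophilin of simple epithelia and heart muscle, moved the other way in ID8 cells. It had 26.6, 22.1 and 23.3 CPM in ID8-200f libraries, against 35.6, 41.8 and 38.3 CPM in ID8EV libraries. The groups did not overlap, and *Pkp2* fell by 0.66 ± 0.11 on the log2 scale (SE, n = 3 each, adjusted p = 3.11e-04). In 28-2 cells it had 38.2, 31.2 and 44.0 CPM in 28-2-200f libraries, against 28.3, 32.4 and 46.7 CPM in 28-2EV libraries, and the groups overlapped (log2 fold change 0.11, adjusted p = 0.84). *Pkp3*, which is found in most epithelia, had 10, 15 and 9 counts in ID8-200f libraries, against 0, 2 and 0 in ID8EV libraries. The ratio of summed counts after scaling was 17.0 with a 95% exact counting interval of 4.37 to 146. In 28-2 cells *Pkp3* had 9, 16 and 45 counts in 28-2-200f libraries, against 0, 6 and 0 in 28-2EV libraries, a ratio of 11.8 (95% exact counting interval 5.16 to 33.2). These intervals cover counting error only, and *Pkp3* stayed at or under 2.54 CPM in every library.

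The makeup of the plakophilin transcripts differed with these values. In TPM, which scales counts to transcript length and so lets levels of different genes be compared, *Pkp1* made up 27.6% ± 3.5 of the plakophilin sum in ID8-200f and 3.78% ± 2.4 in ID8EV cells (SD, n = 3 each). In 28-2 cells its share was 21.7% ± 4.1 in 28-2-200f and 0.24% ± 0.41 in 28-2EV cells. *Pkp2* remained the most abundant plakophilin in all 4 groups, with 70.0% in ID8-200f, 96.1% in ID8EV, 74.6% in 28-2-200f and 99.3% in 28-2EV cells. The plakophilin sum itself was 24.1 ± 0.99 TPM in ID8-200f and 28.3 ± 1.9 TPM in ID8EV cells, whose ranges did not overlap, and 34.3 ± 5.6 TPM in 28-2-200f and 24.2 ± 6.1 TPM in 28-2EV cells, whose ranges did.

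**Figure D3:**
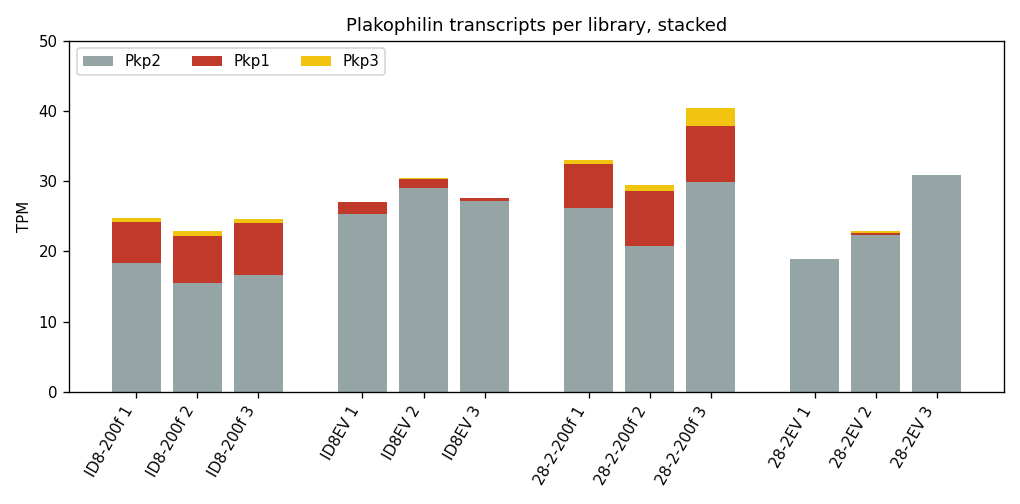
TPM of *Pkp2*, *Pkp1* and *Pkp3* stacked for each of the 12 libraries, with bars from 0. *Pkp1* adds 5.83 to 7.89 TPM in the 200f libraries and at most 1.60 TPM in the EV libraries, above a larger *Pkp2* part.

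*Jup* encodes plakoglobin, the armadillo protein that desmosomes share with adherens junctions. It had 647, 644 and 642 CPM in ID8-200f libraries, against 553, 567 and 651 CPM in ID8EV libraries. The groups overlapped through ID8EV replicate 3, and the log2 fold change was 0.15 ± 0.089 (SE, n = 3 each, adjusted p = 0.20). Without that replicate it was 0.24 and passed, with an adjusted p of 0.043. In 28-2 cells *Jup* had 683, 570 and 674 CPM in 28-2-200f libraries, against 365, 260 and 462 CPM in 28-2EV libraries. The groups did not overlap, and the log2 fold change of 0.87 ± 0.22 (SE) missed the threshold with an adjusted p of 0.073. DESeq2 called it, with an adjusted p of 0.0084.

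The desmosomal cadherins were read from *Dsg2* and *Dsc2*, the desmoglein and the desmocollin of simple epithelia. *Dsg2* had 105, 90.1 and 97.9 CPM in ID8-200f libraries, against 143, 135 and 146 CPM in ID8EV libraries. It fell by 0.51 ± 0.083 on the log2 scale with no overlap (SE, n = 3 each, adjusted p = 3.61e-04). *Dsc2* had 41.8, 28.3 and 32.8 CPM in ID8-200f libraries, against 17.3, 17.8 and 20.1 CPM in ID8EV libraries. It rose by 0.92 ± 0.14 (SE, n = 3 each, adjusted p = 1.62e-04), so that both cadherins moved in opposite directions. *Dsc2* made up 35.3% ± 2.8 of their summed TPM in ID8-200f and 16.9% ± 0.90 in ID8EV cells (SD, n = 3 each). The calls of *Pkp2*, *Dsg2* and *Dsc2* were lost when all 4 groups shared one fit, with adjusted p of 0.063, 0.12 and 0.11, and no other alternative ended them.

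In 28-2 cells neither cadherin passed. *Dsg2* had 148, 107 and 186 CPM in 28-2-200f libraries, against 103, 101 and 126 CPM in 28-2EV libraries (log2 fold change 0.46, adjusted p = 0.31). *Dsc2* had 54.5, 34.4 and 80.5 CPM in 28-2-200f libraries, against 39.9, 15.7 and 29.7 CPM in 28-2EV libraries (log2 fold change 1.04, adjusted p = 0.20). The groups overlapped for both genes, and replicate 3 was again the highest 28-2-200f library.

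*Perp*, a membrane protein of desmosomes and a known target gene of p53 family members, passed in both lines. It had 161, 166 and 169 CPM in ID8-200f libraries, against 99.5, 99.9 and 92.3 CPM in ID8EV libraries. It rose by 0.79 ± 0.079 on the log2 scale (SE, n = 3 each, adjusted p = 5.37e-06). In 28-2 cells it had 239, 248 and 283 CPM in 28-2-200f libraries, against 137, 125 and 159 CPM in 28-2EV libraries, and rose by 0.91 ± 0.16 (SE, n = 3 each, adjusted p = 0.023). The groups did not overlap in either line. *Perp* was also the member with both seed matches printed above. The 28-2 call did not survive leaving out 28-2EV replicate 1 (adjusted p = 0.11) or any single 28-2-200f replicate (adjusted p = 0.052 without replicate 1, 0.11 without replicate 2 and 0.086 without replicate 3), with log2 fold changes of 0.81 to 1.00.

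*Ppl* and *Evpl* encode periplakin and envoplakin, plakins that reach from desmosomes to the filaments and are components of the cornified envelope of skin. *Ppl* had 241, 244 and 262 CPM in ID8-200f libraries, against 235, 218 and 235 CPM in ID8EV libraries, a log2 fold change of 0.15 (adjusted p = 0.17). These groups did not overlap, but the gap between them was small. *Evpl* had 73.1, 56.9 and 69.9 CPM in ID8-200f libraries, against 57.5, 53.6 and 71.5 CPM in ID8EV libraries, and the groups overlapped (log2 fold change 0.15, adjusted p = 0.35). Without ID8EV replicate 3, *Evpl* was at 0.30 with an adjusted p of 0.048. In 28-2 cells *Ppl* had 188, 205 and 356 CPM in 28-2-200f libraries, against 75.4, 193 and 152 CPM in 28-2EV libraries (log2 fold change 0.87, adjusted p = 0.29). *Evpl* had 64.7, 59.2 and 96.2 CPM in 28-2-200f libraries, against 51.8, 32.6 and 62.0 CPM in 28-2EV libraries (log2 fold change 0.64, adjusted p = 0.27). In 28-2EV replicate 2, *Ppl* was the highest of its group while *Evpl*, *Jup* and *Dsc2* were the lowest, so the members did not share one order over the 28-2EV libraries.

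By the plain criterion that all 3 values of one group lay outside the range of the other, 7 of 9 tested members were separated in ID8 cells, against 50.2% of genes. In 28-2 cells 4 of 9 were (*Dsp*, *Pkp1*, *Jup* and *Perp*), against 25.4% of genes.

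Levels per transcript length placed the same genes at the top in every group. In ID8-200f cells *Jup* (377 ± 4.7 TPM) stood above *Perp* (319 ± 13 TPM) and *Ppl* (136 ± 8.1 TPM), and in ID8EV cells *Jup* (347 ± 33 TPM) above *Perp* (189 ± 7.6 TPM) and *Ppl* (126 ± 7.1 TPM; SD, n = 3 each). In 28-2-200f cells *Perp* (478 ± 44 TPM) led *Jup* (363 ± 40 TPM), while in 28-2EV cells *Perp* (259 ± 27 TPM) and *Jup* (202 ± 52 TPM) had overlapping ranges. *Dsp* ranked 6 in ID8-200f (29.9 ± 2.2 TPM) and 8 in ID8EV cells (5.17 ± 0.71 TPM), with a range that overlapped that of *Dsc2* in ID8-200f cells. Of the summed *Dsp*, *Ppl* and *Evpl* TPM, *Dsp* made up 14.6% ± 0.90 in ID8-200f and 3.08% ± 0.22 in ID8EV cells (SD, n = 3 each). All 10 members summed to 995 ± 25 TPM in ID8-200f and 809 ± 40 TPM in ID8EV cells, and to 1184 ± 200 TPM in 28-2-200f and 660 ± 94 TPM in 28-2EV cells (SD, n = 3 each).

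An interaction term fitted to the 12 libraries tested if the 200f response was unequal in the 2 lines. *Pkp1* was the only one of 10 members to pass, with a response larger in 28-2 than in ID8 cells by 4.29 ± 0.97 on the log2 scale (SE, adjusted p = 0.035). Over all genes tested, 2.26% had a higher and 0.712% a lower response in 28-2 cells. Since 28-2EV cells held 4 counts of *Pkp1* in all, the size of this difference rests on a level near 0. The call held in 10 of 21 alternatives, and single libraries ended it. The adjusted p was 0.060 without 28-2-200f replicate 3, 0.071 without 28-2-200f replicate 2, 0.088 without 28-2EV replicate 1, 0.090 without ID8EV replicate 1 and 0.094 without ID8EV replicate 2. It was 0.091, 0.091 and 0.079 without ID8-200f replicates 1, 2 and 3, each time with a log2 difference of 3.71 or more.

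The next member was *Dsg2*, with a difference of 0.97 ± 0.25 (SE, adjusted p = 0.058), called by DESeq2 with an adjusted p of 0.013. *Dsg2*, *Pkp2* (0.78, adjusted p = 0.16) and *Jup* (0.72, adjusted p = 0.14) passed together once 28-2EV replicate 3 was left out, at adjusted p of 0.034, 0.027 and 0.021. For *Dsp* the responses differed by 0.12 ± 0.81 (SE, adjusted p = 0.96). Without 28-2-200f replicate 3 the direction turned: the *Dsp* response was then smaller in 28-2 than in ID8 cells by a log2 difference of -1.42 (adjusted p = 0.0067).

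Before any miR-200 vector, the lines were compared as 28-2EV against ID8EV. At an FDR under 0.05, 0 of 8 members tested were higher and 0 were lower in 28-2EV cells with edgeR, where 0.887% of genes were higher and 2.52% lower. At an unadjusted p under 0.05, 1 was higher and 2 were lower, again with no share over all genes counted. DESeq2 called *Perp* higher and *Pkp1* lower. *Perp* was closest in edgeR, with 137, 125 and 159 CPM in 28-2EV libraries, against 99.5, 99.9 and 92.3 CPM in ID8EV libraries (log2 fold change 0.57, adjusted p = 0.060). *Jup* averaged 362 ± 101 CPM in 28-2EV and 590 ± 53 CPM in ID8EV cells (SD, n = 3 each), with no overlap and a log2 fold change of -0.67 (adjusted p = 0.17). *Dsp* averaged 14.3 ± 2.4 CPM in 28-2EV and 13.2 ± 1.7 CPM in ID8EV cells, and these ranges overlapped. *Pkp1* did not reach the filter. Its summed counts were 4 in 28-2EV and 81 in ID8EV cells, a ratio of 0.057 after scaling (95% exact counting interval 0.015 to 0.15). Leaving out 28-2EV replicate 2 brought *Dsc2* (0.94, adjusted p = 0.0080) and *Perp* (0.64, adjusted p = 0.012) past the threshold, and leaving out 28-2EV replicate 3 brought *Jup* (-0.88, adjusted p = 0.042). These EV libraries also served as the reference of the 200f comparisons above.

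Among 9 other desmosome genes, *Pkp4*, an armadillo protein related to the plakophilins, and *Kazn*, which encodes kazrin, were well expressed. *Pkp4* averaged 136 CPM in ID8-200f, 126 CPM in ID8EV, 121 CPM in 28-2-200f and 118 CPM in 28-2EV cells. *Kazn* averaged 23.6 CPM in ID8-200f, 26.8 CPM in ID8EV, 35.2 CPM in 28-2-200f and 35.8 CPM in 28-2EV cells. The other 7, desmogleins and desmocollins, stayed at or under 0.73 CPM in every library. *Dsg1a*, *Dsg1b* and *Dsg1c*, the desmogleins of skin, had 0 counts in every library. Of the 9, 6 had any reads in the ID8 libraries and only *Pkp4* and *Kazn* could be tested, of which 0 passed at an FDR under 0.05 in any comparison with edgeR or DESeq2. At an unadjusted p under 0.05, 0 of them passed in either 200f comparison and 1 was higher in 28-2EV than in ID8EV cells. For this and the lists below, the share of all genes at an unadjusted p was not counted. Of the 4 other plakins, *Eppk1* (1.00 ± 0.15, adjusted p = 1.6e-04) and *Dst* (0.28 ± 0.10, adjusted p = 0.043) rose in ID8-200f cells and 0 fell. In 28-2 cells 0 passed with edgeR or DESeq2, with 2 higher at an unadjusted p under 0.05. The median of these 4 was 0.17 in ID8 and 0.33 in 28-2 cells. Both plakins are named because they alone passed, a choice made after their values were seen.

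Among 12 keratins and vimentin, the filaments that desmoplakin can bind, 5 of 8 tested rose in ID8-200f cells and 0 fell with edgeR, and 6 rose and 0 fell with DESeq2 (0 lower at an unadjusted p under 0.05). The median log2 fold change was 0.46. *Krt7* averaged 96.8 ± 2.9 CPM in ID8-200f and 2.15 ± 0.24 CPM in ID8EV cells (SD, n = 3 each) and rose by 5.51 ± 0.12 on the log2 scale (SE, adjusted p = 4.05e-12). *Krt80* rose by 1.58 ± 0.13 (SE, adjusted p = 6.92e-07). In 28-2 cells 3 of 8 tested rose and 0 fell with edgeR (1 lower at an unadjusted p under 0.05), 4 rose and 0 fell with DESeq2, and the median was 1.36, with *Krt7* among the genes that rose (8.996 ± 1.1, adjusted p = 0.0094). *Krt6a*, a keratin of stratified epithelia and the stressed epidermis, had 2628 counts in 28-2-200f and 0 in 28-2EV libraries, which is at least 886-fold higher when 3 counts are taken as the limit for the 3 libraries. Of these counts 2191 were in 28-2-200f replicate 3, and without that library the bound was 224-fold. *Krt19* responded more in 28-2 than in ID8 cells (difference 0.96 ± 0.17, adjusted p = 0.0087).

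Hemidesmosome genes, which tie keratin to the matrix instead of to a neighbour, gave 4 higher and 1 lower of 7 tested in ID8 cells, with a median log2 fold change of 0.31. *Itgb4* rose by 1.95 ± 0.13 (SE, adjusted p = 2.12e-07), while *Col17a1*, a collagen of the same junction, fell by 1.82 ± 0.24 (SE, adjusted p = 7.11e-05). In 28-2 cells, with a median of 1.58, 1 of 7 passed, *Lama3*, a laminin chain, which averaged 46.5 ± 16 CPM in 28-2-200f and 1.31 ± 1.4 CPM in 28-2EV cells (SD, n = 3 each, adjusted p = 0.022). Its response differed between the lines by 5.75 ± 0.93 (SE, adjusted p = 0.0056).

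Adherens junction genes gave 5 higher and 2 lower of 11 tested in ID8 cells, with a median log2 fold change of 0.25. *Cdh2*, N-cadherin, was among the lower ones (-0.32 ± 0.099, adjusted p = 0.021). In 28-2 cells 0 of 9 tested passed with edgeR, with 3 higher and 0 lower at an unadjusted p under 0.05, 1 higher with DESeq2 and a median of 0.38. *Cdh1*, E-cadherin, set the lines apart before the miR-200 vectors, with 0.48 ± 0.34 CPM in 28-2EV and 28.2 ± 1.7 CPM in ID8EV cells (SD, n = 3 each, log2 fold change -5.83, adjusted p = 9.68e-04). *Cdh2* was lower in 28-2EV cells as well, with 69.3 ± 5.4 against 163 ± 6.3 CPM (SD, n = 3 each, log2 fold change -1.20, adjusted p = 0.0034). With the vectors *Cdh1* rose by 0.36 ± 0.097 in ID8 cells (SE, adjusted p = 0.010). In 28-2 cells the change was 2.68 ± 0.65 (SE, adjusted p = 0.066), from 25 counts in 28-2EV libraries. The responses differed by 2.32 ± 0.55 (SE, adjusted p = 0.043). Of the 3 cornified envelope genes tested in ID8 cells, *Sprr1a*, a small proline-rich envelope protein, rose by 1.87 ± 0.17 (SE, adjusted p = 2.54e-06), while *Scel*, sciellin, fell by 2.68 ± 0.19 (SE, adjusted p = 2.89e-07). Of the 3 tested in 28-2 cells, 0 passed with edgeR, with 1 higher and 1 lower at an unadjusted p under 0.05 and the same counts with DESeq2. *Sprr1b* had 0 counts throughout.

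**Figure D4:**
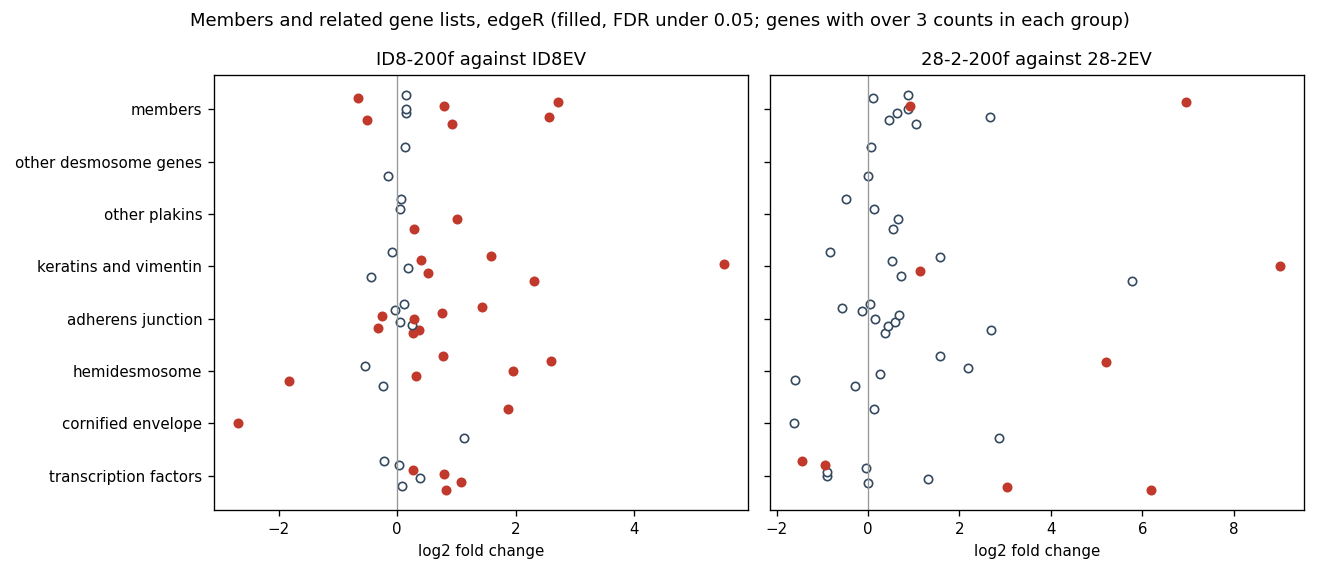
Log2 fold change in edgeR of the members and of 7 related gene lists, for ID8-200f against ID8EV and 28-2-200f against 28-2EV. Each point is a gene with over 3 counts in each group, and filled points passed an FDR under 0.05. Rises and falls mix in the hemidesmosome and cornified envelope lists in ID8 cells, and the axes differ between the panels.

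Transcription factors known to act on epithelial genes were read beside the members. Of the 18 listed, 4 rose and 1 fell among 9 tested in ID8 cells (median log2 fold change 0.27), and 4 rose and 3 fell among 12 tested in 28-2 cells (median -0.020). *Zeb1*, a repressor of epithelial genes, averaged 21.4 CPM in ID8-200f and 21.4 CPM in ID8EV cells (log2 fold change 0.027, adjusted p = 0.87). By western blot, the paper reports less protein of this gene in cells with the miRNA clusters than in EV cells, in both lines. The values here are RNA only, so unchanged RNA in ID8 cells does not mean unchanged protein. *Zeb2* averaged 37.2 CPM in ID8-200f and 44.1 CPM in ID8EV cells (-0.22, adjusted p = 0.077). In 28-2 cells *Zeb1* fell by 0.94 ± 0.19 (SE, adjusted p = 0.040) and *Zeb2* fell by 1.45 ± 0.21 (SE, adjusted p = 0.015). The RNA responses differed between the lines by -0.97 for *Zeb1* (adjusted p = 0.024) and by -1.22 for *Zeb2* (adjusted p = 0.011).

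*Grhl1*, a grainyhead factor known from mouse skin to control desmosomal cadherins, had 2.78, 2.21 and 3.91 CPM in ID8-200f libraries, against 1.87, 1.49 and 1.73 CPM in ID8EV libraries (0.82 ± 0.29, adjusted p = 0.038). In 28-2 cells it had 10.6, 12.4 and 12.1 CPM in 28-2-200f libraries, against 1.46, 1.61 and 1.28 CPM in 28-2EV libraries, and rose by 3.04 ± 0.27 (SE, adjusted p = 0.0037). The *Grhl1* response was larger in 28-2 cells by 2.22 ± 0.36 (SE, adjusted p = 0.0055). *Ehf*, an epithelial ETS factor, had 198 counts in 28-2-200f and 0 in 28-2EV libraries, at least 66.7-fold higher with the same limit. *Twist2*, an EMT factor, had 1 count in ID8-200f and 43 in ID8EV libraries, and 2 in 28-2-200f and 69 in 28-2EV libraries. *Snai2*, another EMT factor, went the other way in ID8 cells and rose by 0.79 ± 0.18 (SE, adjusted p = 0.0041). In 28-2 cells its log2 fold change was -0.89 ± 0.48 (SE, adjusted p = 0.36). *Ovol2* had 0 counts in every library, and *Grhl2* stayed at or under 0.34 CPM.

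The genes nearest to the pattern of *Pkp1* by the measure used for *Dsp* were *Epcam* at 0.86, *Pip5k1b* at 0.90 and *Artn* at 0.95. *Epcam*, an epithelial surface glycoprotein, averaged 8.01 CPM in ID8-200f, 1.70 CPM in ID8EV, 17.2 CPM in 28-2-200f and 0 CPM in 28-2EV cells. Within the members, the most alike pair was *Pkp2* and *Dsg2* at 0.19, followed by *Jup* and *Evpl* at 0.22. The least alike pair was *Pkp1* and *Pkp2* at 2.65.

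The RefSeq promoter table, which covers 250 bases before to 50 after a gene's start, held 2 of the 10 members, *Dsp* and *Jup*. It was searched for the E-box CAGGTG on both strands, the letters that *Zeb* and *Snai* factors are known to bind. One match, in capitals, lay at base 4 after the start of *Dsp*, within chr13:38151285-38151314 on the plus strand (GRCm38.p6), and is printed because *Dsp* was the member with the smallest adjusted p in ID8 cells.
Dsp start region: gaagaagccgacCAGGTGtggcctgggcgc
The *Jup* window held 0 matches, and 20.2% of 32851 promoter windows held at least 1. The *Dsp* window had a GC content of 73.0% and the *Jup* window 60.7%, against a median of 52.7% over all windows.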

How the data were processed

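Total RNA of 12 libraries was extracted with a miRNA isolation kit and sequenced, and the authors used BBDuk for trimming, STAR for alignment and featureCounts for counting (GRCm39 per the labels). What annotation, strand setting and test the study used is not given in the sources used here. The deposited whole-number counts per gene were tested as they stood. The TPM and CPM values were computed by the authors from the same counts, and the deposited CPM equal counts over the library total. CPM are printed as levels and TPM where genes are compared. In GENCODE M21, *Dsp* and *Dsg2* overlap an opposite-strand gene model and *Pkp1* a same-strand one, so their reads could be shared.

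Counts were fitted with edgeR 4.0.16 in R 4.3.3 (TMM, filterByExpr at min.count 10 and min.total.count 15, quasi-likelihood test, Benjamini-Hochberg over all genes tested), each line alone, and over 12 libraries for the difference between the lines. SE are the log2 fold change over the root of F. Totals were 16390953 to 23063875 counts. All replicate pairs differed beyond counting error. Fits were tested on simulated counts. Members and lists were chosen with earlier results of these data known. Named genes are the members, up to 4 list genes per direction and comparison by adjusted p, list genes without reads, the 3 patterns nearest to *Dsp* and *Pkp1*, and *Zeb1*, *Zeb2*, *Grhl1*, *Grhl2* and *Ovol2*. One list gene that the rule names is not reported here. Alternatives were DESeq2 1.42.0, RLE or library-size scaling, no filter or 1 CPM in 3 libraries, all groups in one fit, limma 3.58.1 on log2(TPM + 1) and log2(TPM + 0.1), a replicate block, each library left out in turn and, chosen after seeing the data, 28-2EV replicate 2 and 28-2-200f replicate 3 left out together.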

Additional observations from a re-analysis of the deposited data

Results flagged for a closer look

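The response of *Pkp1* differed between the lines by a test of the difference itself, at 4.29 on the log2 scale (28-2 minus ID8, adjusted p = 0.035, edgeR). All 3 libraries of 28-2-200f (8.58 to 10.9 CPM) lay above all 3 of 28-2EV (0 to 0.22 CPM), and all 3 of ID8-200f (7.91 to 9.70 CPM) above all 3 of ID8EV (0.43 to 2.10 CPM). The 28-2EV libraries held 4 *Pkp1* counts in all, so the size of the difference rests on a level near 0. The call held in 10 of 21 alternatives, and leaving out any one of 8 of the 12 libraries ended it.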

How the results depend on the processing

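In ID8 cells, 0 of 135 single-member values changed direction under an alternative, 3 lost and 2 gained a call. With all 4 groups in one fit, 0 members were lower and 1 passed the stricter cut-off. In that fit 647 of 13620 genes were lower and 300 passed the stricter cut-off, against 2519 and 984 of 13280 in the main fit. Leaving out each library gave 4 to 7 members higher, the 7 without ID8EV replicate 3. *Pkp3*, not tested in the main fit, was among these except without ID8-200f replicate 2. Over all genes these fits gave 1651 to 2076 higher, with 1866 of 13562 without ID8EV replicate 3. In 28-2 cells, the members higher numbered 5 with DESeq2, 5 with no filter on low counts and 6 with all 4 groups in one fit, against 2 in edgeR, and 1 to 3 when each library was left out. *Pkp3*, not tested in the main fit, was among those higher with DESeq2, with no filter and with all 4 groups in one fit. It was also among those higher without 28-2EV replicate 2. The calls over all genes moved too. Higher were 667 of 25059 with DESeq2 (9248 of them without an adjusted p), 511 of 25059 with no filter and 1242 of 13620 with all 4 groups in one fit. The main fit gave 287 of 12679, and leaving out each library gave 70 to 660. Past the stricter cut-off were 2 with no filter and 2 with all 4 groups in one fit, against 1, and 0 to 1 on leaving out each library. Over all genes these were 573 and 726, against 96, and 8 to 244. *Pkp2* turned to -0.085 in 28-2 cells with 28-2EV replicate 2 and 28-2-200f replicate 3 left out together, and ran from -0.040 to 0.35 without single libraries.

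For the difference between the lines, members higher numbered 2 with DESeq2, 2 with no filter, 0 with limma on log2(TPM + 1), 0 with limma on log2(TPM + 0.1) and 0 to 4 without single libraries, against 1. Over all genes, 556 of 28221 were higher with DESeq2 (12056 of them without an adjusted p) and 600 of 28221 with no filter, against 308 of 13620. Members lower numbered 1 (*Dsp*) with both libraries left out and 0 to 1 without single libraries, against 0. *Dsp* reversed to -0.44 on log2(TPM + 1), -0.48 on log2(TPM + 0.1) and -1.40 with both libraries left out, and ran from -1.42 to 0.52 without single libraries. *Pkp3* reversed to 0.38 on log2(TPM + 1), 0.46 on log2(TPM + 0.1) and 2.99 with both libraries left out, and ran from -2.84 to 3.87 without single libraries. With both libraries left out, *Dsc2* reversed to -0.55, *Perp* to -0.057 and *Evpl* to -0.015, and *Dsc2* ran from -0.28 to 0.43 without single libraries. For 28-2EV against ID8EV, 1 member was higher and 1 lower with DESeq2, 1 lower with no filter, and 1 higher and 2 lower with all 4 groups in one fit, against 0. Over all genes, DESeq2 gave 341 higher and 645 lower of 25623 (8957 of them without an adjusted p), and no filter gave 571 lower of 25623. All 4 groups in one fit gave 319 higher and 634 lower of 13620, against 116 and 330 of 13073. Without single libraries, 0 to 2 were higher and 0 to 1 lower, and *Pkp2* ran from -0.29 to 0.11. The causes were not tested.

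Replicate numbers did not pair the libraries: same-numbered deviations correlated at -0.36, 0.16 and -0.043 in ID8 and at 0.28, 0.24 and -0.47 in 28-2 cells. With a replicate block, 1 member was higher and 0 passed the stricter cut-off in 28-2 cells, 0 differed between the lines, and the *Dsp* difference was -0.50. *Pkp3* and, in EV cells, *Pkp1* were limited by depth, as 3 counts were 0.13 to 0.18 CPM.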
